A study of Mus musculus with 18 samples.

Results

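Stress spleen CFU-E were compared with stress spleen BFU-E by their RNA. BFU-E (burst-forming unit, erythroid) and CFU-E (colony-forming unit, erythroid) are consecutive progenitors of the red cell, named for the colonies that they form in culture; BFU-E give rise to large, late colonies, and CFU-E are the erythropoietin-dependent stage that leads into haemoglobin-making erythroblasts. In the mouse the spleen takes over much of this work after a loss of blood or marrow, and both populations come from that setting. The comparison used 3 CFU-E libraries, from CD9-negative cells, and 3 BFU-E libraries, from Sca1-negative cells, which are 6 of the 18 libraries of the study. The 3 stress spleen MPP (multipotent progenitor, Sca1-positive) libraries shared the fit, and the stress BFU-E ATAC-seq peaks (accessible chromatin) were set beside it. All these mice were of the B6SJL background, and spleens were taken at day 8 after a lethal dose of irradiation and a transplant of whole bone marrow. The grafted cells and any host cells that survived were not separated by the labels. Lineage-positive cells were removed with beads against Ter-119, Gr-1, B220 and the T cell antigens CD4 and CD8, and the rest was sorted by flow cytometry with antibodies that included CD71, CD9, CD24a, CD150, CD133, c-Kit and Sca1. The labels do not say that the libraries came from separate animals, so p-values measure the spread between these libraries only.

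Of 24072 genes in the count table, 10166 had a mean of at least 50 counts over the 9 spleen libraries and were tested. On either side of that minimum, Rras and Rps7 averaged 50 and 50.1 counts and were tested, and Zc2hc1a and Snord104 averaged 49.8 counts each and were not. The CFU-E libraries held 9884686 to 12663624 counts and the BFU-E libraries 10598773 to 12978458. Counts of Rn45s, which stands for ribosomal RNA precursor, were 10.3 to 12.9% of the total in CFU-E and 10.6 to 11.4% in BFU-E. Across the tested genes, log2 levels correlated at 0.956 to 0.966 between CFU-E libraries, at 0.958 to 0.964 between BFU-E libraries and at 0.870 to 0.898 between the populations. Expression is given in CPM (counts set relative to library size with TMM factors, trimmed means of M values) and differences as log2 fold changes of CFU-E over BFU-E with their SE. A gene is called where edgeR's quasi-likelihood test gave an adjusted p (Benjamini-Hochberg, over all tested genes) under 0.05. The counting was not stated to use strand, so genes that overlap on opposite strands could not be told apart.

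Of the tested genes, 2145 were called, or 21.1%. The 932 called higher in CFU-E made up 9.17% of all tested genes and the 1213 called lower made up 11.9%. Counts of called members of gene lists below are to be read against these shares. Among the tested genes the losses were larger than the gains. The count minimum was taken over CFU-E, BFU-E and MPP together. A gene read only in CFU-E thus had fewer libraries to reach it than a gene absent only from CFU-E. The part of this filter in the difference was not tested. Among the called genes the median change was 1.604-fold up and 2.28-fold down, and a change of at least 2-fold was reached by 257 genes upward (2.53%) and by 708 genes downward (6.96%), 9.49% in both directions together. A change of at least 8-fold was reached by 37 genes upward and 165 downward. The median log2 fold change of all tested genes was -0.0022; TMM scaling centres most genes near no change, so a shift common to all genes would not be seen. The groups did not overlap in 3809 genes (37.5%), of which 1846 were higher in CFU-E. The longer list of falling genes also had longer transcripts, with a median exon length of 3770 bases, against 2850 for the called rises and 2927.5 for all tested genes; the part of length in the calls was not tested.

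**Figure D1:**
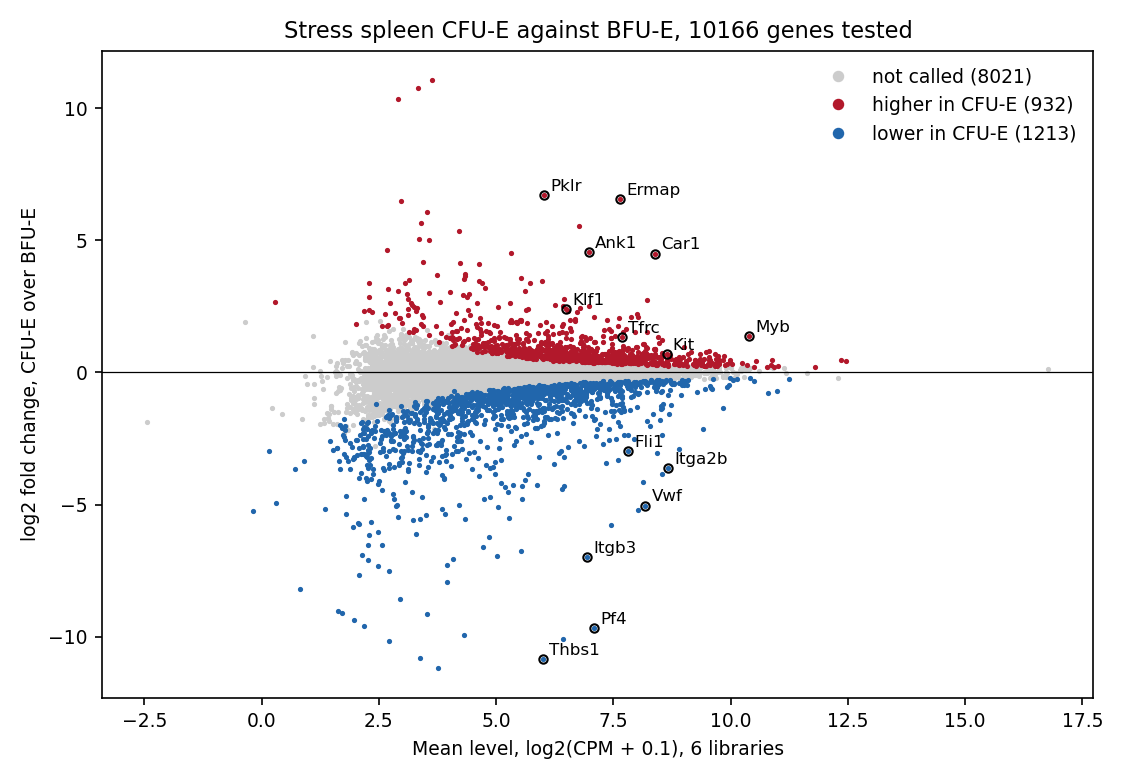
Mean level over the CFU-E and BFU-E libraries (x axis, log2 of CPM + 0.1) against the log2 fold change of CFU-E over BFU-E (y axis) for the 10166 tested genes, with the 932 genes called higher in red and the 1213 called lower in blue. More blue than red points lie far from 0, with 165 genes at least 8-fold lower and 37 at least 8-fold higher; circles mark the labelled genes, and fitted fold changes of genes with no count in a population depend on the prior count.

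The 15 largest rises by the naming rule included genes of the red cell membrane and of red cell enzymes. Ermap, an erythroid membrane protein that carries the Scianna blood group (chromosome 4, 119175457 to 119190011, minus strand, build mm10 throughout), had 379, 421 and 380.0 CPM in the CFU-E libraries, against 5.46, 1.75 and 4.96 CPM in the BFU-E libraries. The difference was a log2 fold change of 6.57 ± 0.35 (SE), adjusted p = 9.67e-12. Pklr, the red cell and liver isozyme of pyruvate kinase (chromosome 3, 89136142 to 89146594, plus strand), had 141, 137 and 106 CPM in the CFU-E libraries, against 1.65, 0 and 1.81 CPM in the BFU-E libraries (log2 fold change of 6.73 ± 0.48 (SE), adjusted p = 1.25e-09). Both genes were near 0 in all BFU-E libraries, and the lowest CFU-E library stood far above the highest BFU-E library. Ank1, the ankyrin that ties spectrin to the red cell membrane (chromosome 8, 23035099 to 23150497, plus strand), had 227, 275 and 224 CPM in the CFU-E libraries, against 9.28, 10.8 and 10.9 CPM in the BFU-E libraries (log2 fold change of 4.55 ± 0.28 (SE), adjusted p = 9.06e-11). Car1, a red cell carbonic anhydrase (chromosome 3, 14766214 to 14778460, minus strand), had 595, 658 and 680.4 CPM in the CFU-E libraries, against 27.1, 25.5 and 32.9 CPM in the BFU-E libraries (log2 fold change of 4.50 ± 0.26 (SE), adjusted p = 4.50e-11). Atp1b2, a beta subunit of the sodium and potassium pump, averaged 214 ± 27.0 CPM in CFU-E and 4.48 ± 2.37 CPM in BFU-E (log2 fold change of 5.56 ± 0.39 (SE), adjusted p = 1.00e-09). Slc40a1, the iron exporter ferroportin, whose mean level was under that of the 15 largest rises named by rule, had 34.3, 33.3 and 37.8 CPM in the CFU-E libraries, against 1.35, 3.42 and 1.26 CPM in the BFU-E libraries (log2 fold change of 4.14 ± 0.55 (SE), adjusted p = 9.50e-06). The other members of the 15 largest rises were Mt2, Slc38a5, Kcng2, Cx3cr1, Add2, Zfp831, Myo1d, Garem, Xylt1 and Kel, with log2 fold changes between 3.20 (Kel) and 4.52 (Mt2), and none of their groups overlapped, which the choice of these genes required. In MPP, the earlier stage, Ermap averaged 1.08, Pklr 0.442, Ank1 3.19 and Car1 3.18 CPM.

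The upstream sequences of 5 red cell genes that rose and of a pair of platelet genes that fell are shown next, as examples of the windows searched for the letters of red cell regulators. GATA factors and KLF1, the regulators of red cell genes, bind GATA and CACCC letters. Each line gives 120 bases up to the start of the gene from RefSeq (build GRCm38.p6, the build of the files), 5′ to 3′ on the strand of the gene. Capitals mark the GATA letters (AGATAA or else AGATAG, and likewise TGATAA or else TGATAG) and the letters CACCC, on either strand.
Ermap (chr4:119189996-119190115, minus strand): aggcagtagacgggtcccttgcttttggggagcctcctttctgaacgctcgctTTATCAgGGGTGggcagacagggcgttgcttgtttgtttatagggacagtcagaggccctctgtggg
Pklr (chr3:89136022-89136141, plus strand): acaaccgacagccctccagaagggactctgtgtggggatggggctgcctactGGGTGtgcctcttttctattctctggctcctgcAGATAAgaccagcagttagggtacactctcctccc
Klf1 (chr8:84901862-84901981, plus strand): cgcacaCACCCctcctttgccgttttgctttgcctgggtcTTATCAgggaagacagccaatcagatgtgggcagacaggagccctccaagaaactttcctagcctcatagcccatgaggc
Kel (chr6:41704326-41704445, minus strand): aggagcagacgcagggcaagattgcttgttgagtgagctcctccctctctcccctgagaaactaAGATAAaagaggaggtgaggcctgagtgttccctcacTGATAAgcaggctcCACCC
Rhag (chr17:40811029-40811148, plus strand): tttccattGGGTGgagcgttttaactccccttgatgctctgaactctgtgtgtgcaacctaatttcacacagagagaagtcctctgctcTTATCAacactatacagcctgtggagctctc
Pf4 (chr5:90772315-90772434, plus strand): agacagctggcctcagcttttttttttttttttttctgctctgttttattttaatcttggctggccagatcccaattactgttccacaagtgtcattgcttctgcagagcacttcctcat
Plek (chr11:17008719-17008838, minus strand): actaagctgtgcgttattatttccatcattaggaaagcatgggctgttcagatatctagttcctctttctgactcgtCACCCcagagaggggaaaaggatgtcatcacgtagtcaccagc
These 7 genes were picked from those with an entry in the RefSeq table after their changes and their letters were seen, so the matches describe these windows only. All 5 red cell sequences held a GATA match and a CACCC match within 120 bases, and Kel held 2 GATA matches. Neither platelet sequence held a GATA match. Over whole promoters of 300 bases, a GATA match was found in 18 of the 54 promoters of genes at least 4-fold higher in CFU-E (33.3%, 95% Wilson interval 22.2 to 46.6%), in 56 of 240 of those at least 4-fold lower (23.3%, 18.4 to 29.1%) and in 1283 of all 7387 matched promoters of tested genes (17.4%, 16.5 to 18.3%), so the shares of both sets of large changes lay above that of all tested genes. Among genes with no call and a BFU-E mean under 10 CPM, the share was 18.9% (157 of 829, 16.4 to 21.8%). Among genes at least 4-fold higher in CFU-E with a BFU-E mean under 10 CPM it was 33.3% (13 of 39, 20.6 to 49.0%). These intervals overlap, and the sets were not matched in level under 10 CPM. Over all genes called higher the share was 17.7%, close to the share of all tested genes. CACCC was found in 64.8% of the promoters of genes at least 4-fold higher and in 62.0% of all tested ones, and so did not set them apart. The ETS letters CAGGAAG, added after the first results, were found in 4 of 54 promoters of genes at least 4-fold higher (7.41%, 2.92 to 17.6%), in 38 of 240 of those at least 4-fold lower (15.8%, 11.8 to 21.0%) and in 12.1% of all tested ones, and these intervals overlap. In all 27023 promoters of the RefSeq table the shares were 30.1% for GATA, 56.8% for CACCC and 13.04% for CAGGAAG.

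The stress BFU-E peak list showed which of these starts had a called peak one stage earlier. A single start per gene was used, so peaks at other starts of a gene were missed. Open sites too weak for the list were missed too, so a start without a peak was not shown to be closed. Of the 15 largest rises, 9 had a BFU-E peak within 1 kb of their start, and all 15 of the largest falls had one. The naming rule asked for a mean of at least 20 CPM over the 6 libraries. The largest falls were thus well read in BFU-E by choice, and the largest rises were low there. The contrast between these sets is therefore no separate result. Ermap, Pklr, Kel, Car1, Add2 and Zfp831 had none, and neither did Rhag. Klf1 had one. A peak lay at 68 of the 87 genes called at least 4-fold higher (78.2%, 95% Wilson interval 68.4 to 85.6%), at 291 of the 334 called at least 4-fold lower (87.1%, 83.1 to 90.3%) and at 9671 of all 10166 tested genes (95.1%, 94.7 to 95.5%). Genes of low level have fewer peaks in general. Among genes with no call and a BFU-E mean under 10 CPM the share was 88.0% (86.1 to 89.8%). For the 64 genes at least 4-fold higher in CFU-E with a BFU-E mean under 10 CPM it was 76.6% (64.9 to 85.3%). These intervals do not overlap, but the sets were not matched in level under 10 CPM. The genes that rose could pass the count minimum through CFU-E while at or near 0 in BFU-E, so level was not held equal. Over all genes called higher the share was 94.7% and over all called lower 92.6%. No ATAC-seq of CFU-E was used here, so whether the starts without a peak were open at that stage was not tested. The peaks are 1 list for the 3 BFU-E libraries, and the intervals cover counting error only.

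A few genes had counts in CFU-E or in BFU-E but none in the other. Sphk1, which makes sphingosine-1-phosphate (chromosome 11, 116532444 to 116536675, plus strand), had 843 counts over the CFU-E libraries (18.3, 30.8 and 24.7 CPM in the CFU-E libraries, against 0, 0 and 0 CPM in the BFU-E libraries), and none in BFU-E or MPP. Taking 3 counts over the group as the floor, it was at least 300.2-fold higher in CFU-E (adjusted p = 6.14e-07). Nkx1-2, a homeobox gene, had 683 counts in CFU-E and none in BFU-E or MPP, at least 243-fold higher. Sfrp4, a secreted binder of WNT ligands, had 531 counts in CFU-E, none in BFU-E and 19 in MPP. In the opposite direction 8 tested genes had no count in CFU-E, which were Clu, Amotl2, E130310I04Rik, H2-Eb1, Il10ra, Pdgfb, Pld4 and Sema7a. All of them had counts in MPP. E130310I04Rik, Il10ra, Pdgfb, Pld4 and Sema7a had too few BFU-E counts to pass the minimum over the 9 libraries without MPP. Their MPP counts were thus required by the filter. Clu, the chaperone clusterin, had 0, 0 and 0 CPM in the CFU-E libraries, against 34.7, 22.3 and 24.2 CPM in the BFU-E libraries and was at least 316-fold lower. Pdgfb, a growth factor carried by platelets, had 0, 0 and 0 CPM in the CFU-E libraries, against 7.18, 9.14 and 10.4 CPM in the BFU-E libraries and was at least 102-fold lower. These 11 genes were singled out after their values were seen and are all the tested genes without a count in CFU-E or without one in BFU-E.

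**Figure D2:**
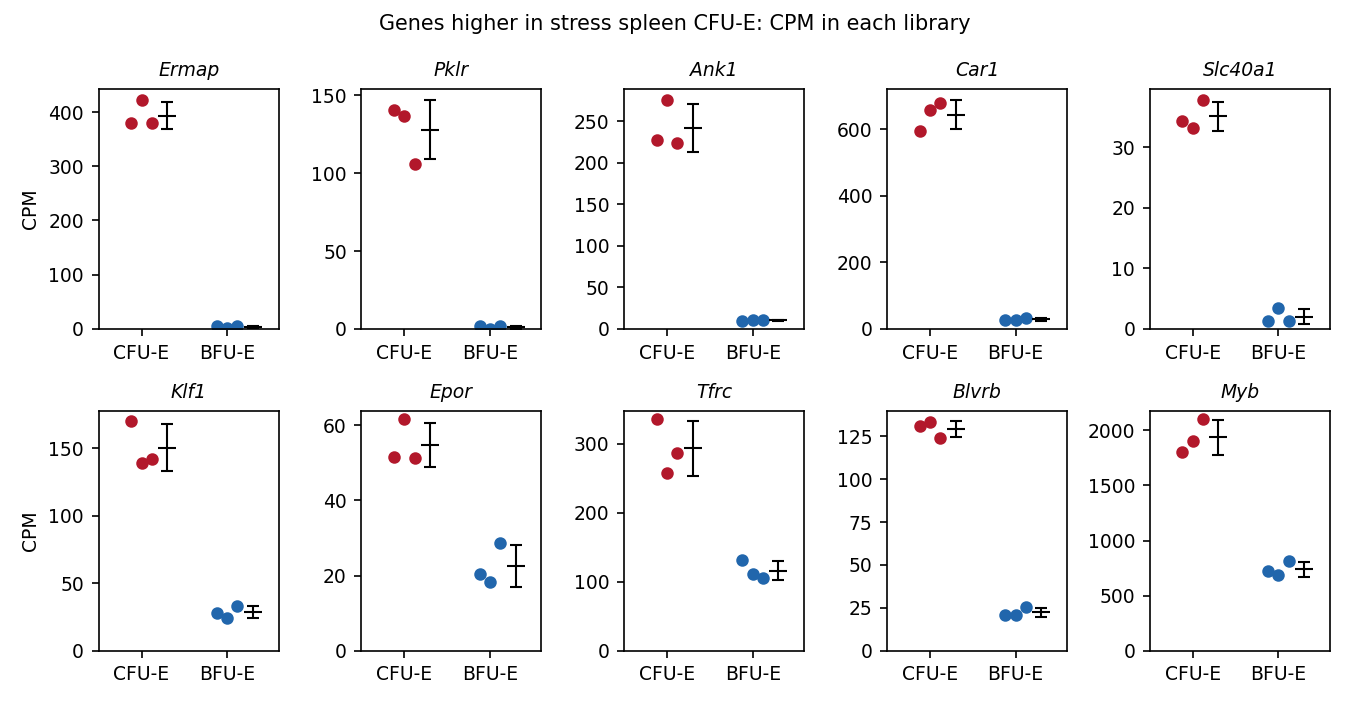
CPM in each library (y axis, from 0) for 10 genes called higher in CFU-E, with CFU-E in red left of BFU-E in blue, and the mean ± SD beside the points (n = 3 each). No gene has overlapping groups, and Ermap, Pklr and Slc40a1 lie near 0 in BFU-E.

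Among the regulators of the red cell programme, 9 of 24 tested members rose and 4 fell. Klf1, the CACCC-binding factor that drives red cell genes, had 171, 139 and 142 CPM in the CFU-E libraries, against 28.1, 24.2 and 33.4 CPM in the BFU-E libraries (log2 fold change of 2.40 ± 0.23 (SE), adjusted p = 7.85e-08). Myb, which keeps progenitors dividing, was the most abundant of the 24 in CFU-E with 1799.8, 1905 and 2107 CPM in the CFU-E libraries, against 719, 685 and 814 CPM in the BFU-E libraries (log2 fold change of 1.39 ± 0.08 (SE), adjusted p = 4.11e-11). Both were higher in each CFU-E library than in any BFU-E library. Klf3, a repressor that KLF1 induces, Ikzf1, Ldb1, Lyl1 and E2f4 were among the other rises, at 1.497, 1.13, 0.97, 0.84 and 0.59 on the log2 scale, and the call of Lyl1 was lost without BFU-E replicate 2 or 3. Gata1, the master factor of the lineage, had 159.7, 155 and 164 CPM in the CFU-E libraries, against 119, 101 and 121 CPM in the BFU-E libraries, a log2 fold change of 0.49 ± 0.16 (SE), adjusted p = 0.0313, and the call was lost when any 1 of the 6 libraries was left out. Runx1, which megakaryocytes require, averaged 124 ± 4.68 CPM in CFU-E and 336 ± 28.4 CPM in BFU-E (log2 fold change of -1.44 ± 0.12 (SE), adjusted p = 1.52e-08). Zfpm1, the GATA1 partner FOG1, and Lmo2 fell by 0.53 and 0.48, and Nfe2, another factor that platelets depend on, fell by 0.33, a call lost when any library but BFU-E replicate 2 was left out. Tal1, which sits with GATA1 and LMO2 in the core complex, averaged 275 ± 19.9 CPM in CFU-E and 259 ± 9.21 CPM in BFU-E with an adjusted p of 0.636. The median of the 24 was 0.16, and for comparison 21.1% of all tested genes were called.

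The membrane skeleton of the red cell changed in most of its tested members and in both directions, with 7 of 11 called higher and 3 called lower. Besides Ank1, the rises included Add2 (85.7 against 7.26 CPM in CFU-E and BFU-E), Stom (133 against 47.4 CPM), Kcnn4, the Gardos potassium channel (171 against 66.8 CPM), Piezo1, the mechanosensitive channel (296 against 156 CPM), and Add1 (412 against 256 CPM). Sptb, beta spectrin, fell, with 18.4, 26.4 and 19.6 CPM in the CFU-E libraries, against 90.7, 79.9 and 69.3 CPM in the BFU-E libraries (log2 fold change of -1.89 ± 0.29 (SE), adjusted p = 4.69e-05). Tmod1, which caps actin, and Epb41, protein 4.1, fell by 1.10 and 0.53. The 7 rises and 3 falls were the same in number under all 15 alternative settings. Of 15 surface proteins that carry blood groups or mark red cells, 6 rose and 1 fell. Rhag, the ammonia channel of the Rh complex, averaged 19.6 ± 1.26 CPM in CFU-E and 0.576 ± 0.667 CPM in BFU-E, Kel, the Kell endopeptidase, 48.9 ± 12.96 CPM in CFU-E and 5.31 ± 2.77 CPM in BFU-E, and Aqp1, the water channel, 373 ± 25.4 CPM in CFU-E and 129 ± 12.8 CPM in BFU-E. Slc14a1, the urea channel of the Kidd blood group, fell, with 154, 133 and 104 CPM in the CFU-E libraries, against 502, 442 and 458 CPM in the BFU-E libraries (log2 fold change of -1.84 ± 0.13 (SE), adjusted p = 1.10e-09); in MPP it averaged 187 CPM. Bsg and Cd44 rose by 0.44 and 0.34, and the call of Cd44 was lost when any library but CFU-E replicate 3 was left out.

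Genes of the latest steps were hardly read in either population. Globin transcripts summed to 1.42 to 21.0 CPM in the CFU-E libraries and 1.65 to 14.95 CPM in the BFU-E libraries, and no globin gene reached the count minimum. Hbb-bs, the adult beta globin, had 1, 112 and 0 counts in CFU-E and 15, 48 and 0 in BFU-E. Alas2, the erythroid first enzyme of haem synthesis, had 5, 49 and 31 counts in CFU-E, against 29, 37 and 19 in BFU-E. Slc4a1, the anion exchanger band 3, had 0, 0 and 21 counts in CFU-E and 29, 30 and 0 in BFU-E. Epb42, protein 4.2, had 38, 38 and 23 counts in CFU-E, against 0, 1 and 4 in BFU-E. These genes were below the minimum and were not tested. The duplicated alpha globin genes share reads, and counts of such copies are uncertain. Hbb-b1 had the same counts as Hbb-bs in every library, and Hbb-b2 nearly those of Hbb-bt. The globin sums above thus hold such counts more than once. Ter-119, an antigen of later red cells, was among the antibodies used to remove cells. Of the markers that were not sort antigens, Klf1, Epor, Ermap and Car1 were higher in the libraries labelled CFU-E, and globin sums overlapped. Other red cell genes were called lower there, among them Sptb, Tmod1, Epb41, Slc14a1, Trim58 and Xpo7. Of 14 tested genes of red cell maturation, 1 rose and 3 fell (against 9.17% and 11.9% of all tested genes).

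Haem and iron genes rose in part. Of 16 haem synthesis and transport genes, 5 rose (against 9.17% of all tested genes), none fell, and 14 had a positive log2 fold change. Alad, the second enzyme of the pathway, had 137, 139 and 118 CPM in the CFU-E libraries, against 37.0, 37.9 and 41.1 CPM in the BFU-E libraries (log2 fold change of 1.76 ± 0.20 (SE), adjusted p = 9.49e-07), and Cpox, a later mitochondrial step, had 268, 293 and 221 CPM in the CFU-E libraries, against 85.6, 88.7 and 87.8 CPM in the BFU-E libraries (log2 fold change of 1.58 ± 0.14 (SE), adjusted p = 2.47e-08). Fech, which inserts iron, Urod and Abcb10 rose by 0.84, 0.62 and 0.71, and the call of Abcb10 was lost without CFU-E replicate 1 or BFU-E replicate 1. Alas1, the housekeeping first enzyme, averaged 33.1 ± 8.24 CPM in CFU-E and 47.7 ± 4.22 CPM in BFU-E (adjusted p = 0.0898). Of 13 iron genes 6 rose and none fell. Tfrc, the transferrin receptor CD71 and one of the sort antigens, had 336, 257 and 287 CPM in the CFU-E libraries, against 131, 112 and 105 CPM in the BFU-E libraries (log2 fold change of 1.34 ± 0.15 (SE), adjusted p = 1.33e-06). Steap3, which reduces endosomal iron, Tfr2, Slc11a2, which carries it out of the endosome, and Fth1, ferritin heavy chain, rose by 1.32, 1.15, 0.98 and 0.53. The exporter Slc40a1 had the largest change of the list although uptake genes rose too. Aco1, which is iron regulatory protein 1 when it lacks its cluster, and Glrx5 were the 2 of 13 iron-sulphur genes called, with rises of 1.27 and 0.99. Blvrb, a biliverdin and flavin reductase abundant in red cells, had 131, 133 and 124 CPM in the CFU-E libraries, against 20.9, 20.6 and 25.4 CPM in the BFU-E libraries (log2 fold change of 2.54 ± 0.20 (SE), adjusted p = 4.37e-09). The metallothionein Mt1 averaged 221 ± 28.7 CPM in CFU-E and 51.1 ± 10.6 CPM in BFU-E. Mt2 averaged 75.9 ± 10.2 CPM in CFU-E and 3.29 ± 1.69 CPM in BFU-E, and 5 of the 6 tested carbonic anhydrase and metallothionein genes rose. Of 25 antioxidant genes 10 rose and none fell, among them Nqo1 (28.9 against 6.11 CPM in CFU-E and BFU-E), Gclm (188 against 84.4 CPM), Prdx2 (170.1 against 91.4 CPM), Cat (172 against 112 CPM) and Nfe2l2 (152 against 77.5 CPM), the factor NRF2 that drives such genes.

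The receptor for erythropoietin rose while many genes that its STAT5 signal is known to induce did not. Epor had 51.5, 61.6 and 51.3 CPM in the CFU-E libraries, against 20.5, 18.2 and 28.7 CPM in the BFU-E libraries (log2 fold change of 1.29 ± 0.27 (SE), adjusted p = 0.00119), with groups that did not overlap. Bcl2l1, the survival protein BCL-XL, had 19.1, 11.9 and 12.9 CPM in the CFU-E libraries, against 67.6, 92.1 and 74.7 CPM in the BFU-E libraries (log2 fold change of -2.41 ± 0.21 (SE), adjusted p = 2.46e-08). The feedback genes Cish, Socs2 and Socs3 and the kinase gene Pim2 averaged 9.61 against 20.3 CPM, 2.81 against 11.004 CPM, 3.13 against 9.70 CPM and 5.42 against 16.5 CPM in CFU-E and BFU-E, and all 4 were called lower, at low levels. The call of Socs3 was lost without CFU-E replicate 2 or 3 or without BFU-E replicate 1 or 3. In all, 2 of 17 tested genes of the pathway rose and 6 fell (against 9.17% and 11.9% of all tested genes), and 3 fell in the test on RPKM. Lyn was the other fall, at -0.59, and Ptpn6, a phosphatase that damps the receptor, was the other rise, at 0.47, a call lost without CFU-E replicate 2 or without BFU-E replicate 2 or 3. Bcl2 fell like its relative (41.4 against 120.4 CPM in CFU-E and BFU-E, log2 fold change -1.54). Diablo, which frees caspases from their inhibitors, rose by 1.11. Of 20 tested BCL2 family and caspase genes 2 rose and 3 fell, shares near the 9.17% and 11.9% of all tested genes, and the fall of Casp8 (-0.44) was called in 1 of 6 leave-one-out fits.

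Other receptors changed with it. Of 30 tested cytokine and growth factor receptors 6 rose and 10 fell (against 9.17% and 11.9% of all tested genes). The falls numbered 6 without CFU-E replicate 1 or 2 or without BFU-E replicate 1 or 3. Il1rl1, the receptor of interleukin 33, had 80.2, 76.3 and 101 CPM in the CFU-E libraries, against 12.0, 16.3 and 20.9 CPM in the BFU-E libraries (log2 fold change of 2.39 ± 0.37 (SE), adjusted p = 6.09e-05). Ifngr1, for interferon gamma, Ptger4, for prostaglandin E2, and Kit, for stem cell factor, rose by 1.29, 1.29 and 0.70. Il6st, the shared chain of interleukin 6 receptors, and Il6ra averaged 5.40 against 32.7 CPM and 0.339 against 14.4 CPM. Of 11 tested glucocorticoid response genes 3 rose (against 9.17% of all tested genes) and none fell. Nr3c1, the glucocorticoid receptor that stress erythropoiesis relies on, rose by 0.81 (226 against 129 CPM), and Fkbp4, a chaperone partner of that receptor, by 0.51. Klf9, a target gene, rose by 0.83, a call lost with limma and without CFU-E replicate 1 or 2 or BFU-E replicate 1 or 2. The target genes Tsc22d3 and Fkbp5 averaged 18.4 against 29.4 CPM and 122 against 136 CPM with adjusted p of 0.0958 and 0.432. Of 15 genes of BMP and TGF-beta signalling, the pathway that starts stress erythropoiesis in the spleen, 1 rose and 5 fell, or 3 without BFU-E replicate 3. Of all tested genes 9.17% were called higher and 11.9% lower. Smad1 fell by 1.00, a call lost without BFU-E replicate 2, and Tgif1, a repressor of the pathway, rose by 1.75. Smad5 averaged 53.4 ± 6.07 CPM in CFU-E and 71.7 ± 19.8 CPM in BFU-E (adjusted p = 0.113).

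Among the sort antigens, Cd9 was lower in CFU-E, as its use in the gate sets, with 27.0, 16.1 and 13.1 CPM in the CFU-E libraries, against 165, 140.1 and 142 CPM in the BFU-E libraries, and this is no finding. Cd24a averaged 175 ± 30.6 CPM in CFU-E and 35.7 ± 6.51 CPM in BFU-E, Slamf1 (CD150) 27.0 ± 12.8 CPM in CFU-E and 47.2 ± 9.84 CPM in BFU-E and Kit 492 ± 42.3 CPM in CFU-E and 303 ± 46.0 CPM in BFU-E. Ly6a, the gene of Sca1, was near 0 in both, at 1.94 against 0.286 CPM, against 19.8 CPM in MPP. Both populations were sorted by these proteins, so none of these differences is independent of the sort.

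Megakaryocyte genes formed the largest block of falls. Of 22 tested members of a 24-gene marker list, 21 fell and none rose, with a median log2 fold change of -3.61, against -0.0022 for all tested genes. The list's summed level was 533 to 628 CPM in CFU-E and 4219 to 4666 CPM in BFU-E. Thbs1, thrombospondin (chromosome 2, 118111876 to 118127133, plus strand), had 2 counts over the CFU-E libraries and 4741 over the BFU-E libraries, or 0, 0.0847 and 0.102 CPM in the CFU-E libraries, against 148, 114 and 120.02 CPM in the BFU-E libraries. Its ratio of BFU-E to CFU-E was 2219, with a 95% counting interval of 614 to 18330. Pf4, platelet factor 4 (chromosome 5, 90772435 to 90773383, plus strand), had 0.0775, 0.0847 and 0.915 CPM in the CFU-E libraries, against 282, 305 and 228 CPM in the BFU-E libraries (log2 fold change of -9.68 ± 0.32 (SE), adjusted p = 6.54e-15). These platelet granule genes were at or near 0 in every CFU-E library. Itgb3, the integrin beta 3 chain of the fibrinogen receptor, had 2.01, 2.29 and 1.32 CPM in the CFU-E libraries, against 274, 233 and 227 CPM in the BFU-E libraries (log2 fold change of -7.00 ± 0.20 (SE), adjusted p = 9.65e-16), and its partner Itga2b (CD41) kept a readable level with 62.8, 57.7 and 62.3 CPM in the CFU-E libraries, against 766, 783 and 721 CPM in the BFU-E libraries (log2 fold change of -3.63 ± 0.11 (SE), adjusted p = 1.20e-15). Vwf, von Willebrand factor, had 14.7, 15.5 and 21.4 CPM in the CFU-E libraries, against 573, 616 and 497 CPM in the BFU-E libraries (log2 fold change of -5.04 ± 0.15 (SE), adjusted p = 1.20e-15), and Plek, pleckstrin, 12.6, 16.0 and 11.8 CPM in the CFU-E libraries, against 516, 518 and 479.8 CPM in the BFU-E libraries (log2 fold change of -5.22 ± 0.17 (SE), adjusted p = 6.54e-15). The receptor genes Gp1bb, Gp9, Gp5 and Gp1ba averaged 0.106 against 30.7 CPM, 1.78 against 21.3 CPM, 26.3 against 83.1 CPM and 15.03 against 46.5 CPM in CFU-E and BFU-E. The smallest called fall was that of F2r, a thrombin receptor, at -1.27, and Ltbp1 was the member not called (adjusted p = 0.0916). BFU-E stood above MPP in many of these genes: Itga2b averaged 373, Plek 192, Itgb3 99.2 and Pf4 97.6 CPM in MPP, against 756, 505, 245 and 272 CPM in BFU-E; that difference was not tested. In bulk libraries, fewer cells of a type and less RNA per cell cannot be told apart. The CFU-E libraries came from CD9-negative cells, so the effects of that gate and of the stage cannot be told apart either.

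**Figure D3:**
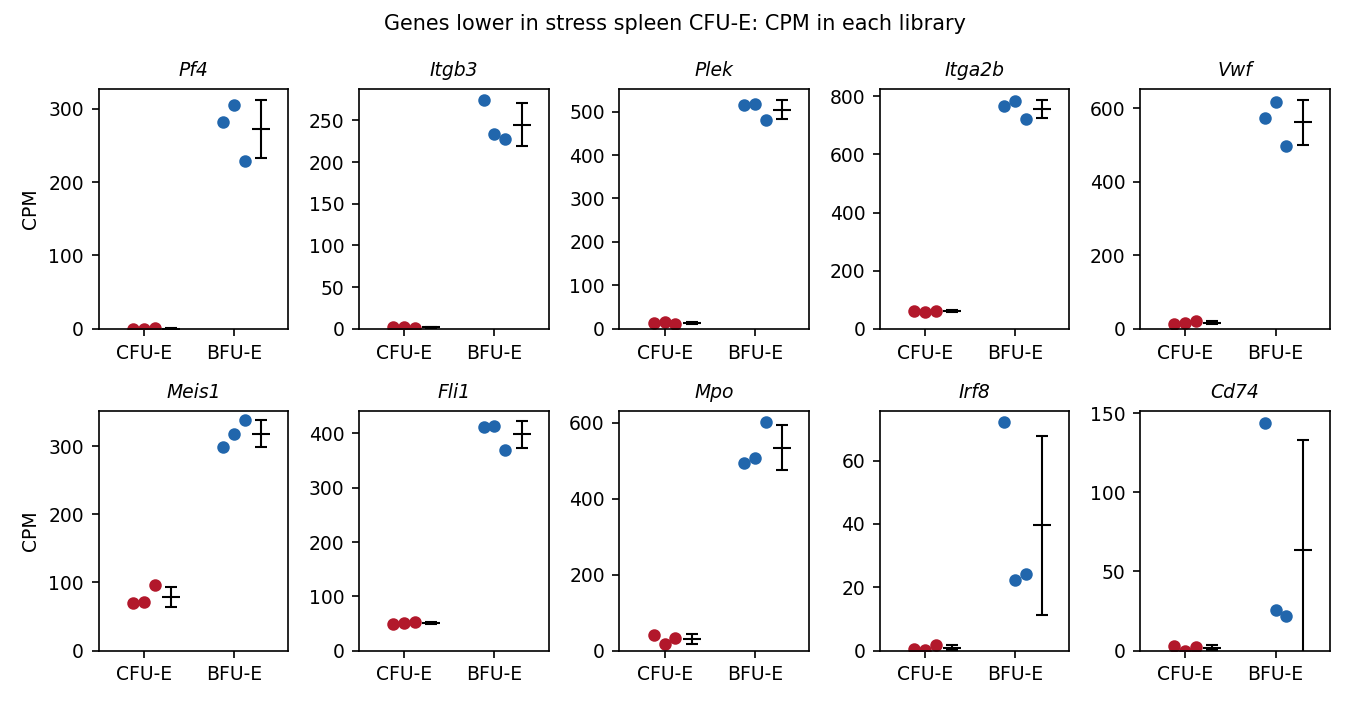
CPM in each library (y axis, from 0) for 10 genes called lower in CFU-E, with CFU-E in red left of BFU-E in blue, and the mean ± SD beside the points (n = 3 each, bars cut at 0). Megakaryocyte, stem cell and granulocyte genes are low in all CFU-E libraries, and Irf8 and Cd74 have their highest value in BFU-E replicate 1.

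Some transcription factors of those lineages fell too. Of 15 ETS and RUNX factors 8 fell and none rose, with a median of -0.63. Fli1, which drives megakaryocytes and opposes KLF1, had 49.4, 51.4 and 52.1 CPM in the CFU-E libraries, against 411, 414 and 369.7 CPM in the BFU-E libraries (log2 fold change of -2.97 ± 0.12 (SE), adjusted p = 2.45e-13), while Klf1 moved the other way. Spi1 (PU.1) averaged 7.91 ± 3.66 CPM in CFU-E and 31.7 ± 3.71 CPM in BFU-E, Etv6 229 ± 12.9 CPM in CFU-E and 522 ± 18.8 CPM in BFU-E, and Erg 46.1 ± 10.2 CPM in CFU-E and 109 ± 1.96 CPM in BFU-E. Gabpa and Ets2, at log2 fold changes of 0.03 and -0.12, had adjusted p of 0.913 and 0.814. Of 28 tested stem and multipotent progenitor genes 16 fell and 1 rose, with a median of -1.22. Meis1, a partner of HOX proteins, had 69.2, 71.4 and 96.1 CPM in the CFU-E libraries, against 298, 318 and 338 CPM in the BFU-E libraries (log2 fold change of -2.01 ± 0.13 (SE), adjusted p = 2.77e-10), and Mecom averaged 3.58 ± 0.228 CPM in CFU-E and 23.2 ± 6.71 CPM in BFU-E, with 114 CPM in MPP. The rise was the low-level Ly6a, a call lost without CFU-E replicate 2 or without BFU-E replicate 1 or 2. Gata2 fell by 0.65 (328 against 512 CPM in CFU-E and BFU-E), and per library its groups did not overlap. Gata2 and Fli1 were thus still read in CFU-E at 328 and 50.9 CPM, while Pf4 and Thbs1 were near 0.

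Granulocyte and monocyte markers also stood higher in BFU-E. Of 15 tested members of the list of 22, 8 fell and none rose, with a median of -2.88. The falls numbered 6 in the DESeq2 Wald test and 12 without CFU-E replicate 1. They numbered 14 without a minimum on counts, where more members of the list were tested. The list summed to 33.2 to 129 CPM in CFU-E and 764 to 1012.5 CPM in BFU-E, and Cd14, Cebpe and Fcgr3 had no count in CFU-E. Mpo, myeloperoxidase of granules, had 41.2, 16.6 and 33.0 CPM in the CFU-E libraries, against 493, 508 and 603 CPM in the BFU-E libraries (log2 fold change of -4.14 ± 0.65 (SE), adjusted p = 7.28e-05), and Elane, neutrophil elastase, averaged 2.09 ± 1.86 CPM in CFU-E and 56.3 ± 15.3 CPM in BFU-E (log2 fold change of -4.73 ± 1.08 (SE), adjusted p = 0.00282). Mpo differed among the MPP libraries, at 285, 18.3 and 23.3 CPM. Ltf, Ngp and S100a9, genes of later neutrophils, averaged 5.04 against 19.3 CPM, 5.29 against 12.6 CPM and 4.59 against 20.8 CPM with adjusted p of 0.451, 0.566 and 0.219. Irf8, a factor of monocytes and dendritic cells, had 0.620, 0.254 and 1.73 CPM in the CFU-E libraries, against 72.1, 22.3 and 24.2 CPM in the BFU-E libraries (log2 fold change of -5.55 ± 0.68 (SE), adjusted p = 2.96e-06), and its value in BFU-E replicate 1 was above the others; without it the log2 fold change was -4.77. Genes of MHC class II followed the same library. Cd74, the invariant chain, had 3.25, 0.0847 and 2.24 CPM in the CFU-E libraries, against 144, 25.8 and 21.7 CPM in the BFU-E libraries, and without BFU-E replicate 1 its log2 fold change moved to -3.66, against -5.09 with it. Ciita, the class II activator, had 0.310, 0.0847 and 0 CPM in the CFU-E libraries, against 22.1, 0.831 and 1.495 CPM in the BFU-E libraries, with -2.95 against -5.74. H2-Eb1, a class II beta chain, had no count in CFU-E and 30.7, 4.71 and 3.54 CPM in BFU-E. Class I genes had similar means, with no call: H2-K1 averaged 785 ± 4.29 CPM in CFU-E and 788 ± 19.5 CPM in BFU-E (adjusted p = 0.969) and B2m 716 ± 16.7 CPM in CFU-E and 730.4 ± 16.3 CPM in BFU-E (adjusted p = 0.858). Of 35 antigen presentation genes 1 rose and 8 fell (against 9.17% and 11.9% of all tested genes).

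Markers of other spleen cells differed in level between the lists. B cell markers summed to 1.44 to 2.44 CPM in CFU-E and 7.02 to 10.9 CPM in BFU-E, with Ms4a1 and Pax5 at 0 in both. T and NK markers summed to 42.0 to 55.5 CPM in CFU-E and 72.5 to 85.2 CPM in BFU-E, with Cd3e, Cd4 and Cd8a at 0 in both. Macrophage markers summed to 37.6 to 51.6 CPM in CFU-E and 32.8 to 50.9 CPM in BFU-E, and Vcam1, Timd4 and C1qb had no count in either. Dendritic cell markers summed to 81.8 to 111 CPM in CFU-E and 136 to 209 CPM in BFU-E, endothelial and stromal markers to 89.6 to 97.3 and 174 to 209 CPM, eosinophil markers to 17.6 to 19.7 and 7.00 to 9.50 CPM, and mast cell and basophil markers to 666 to 837 and 932 to 1041 CPM, most of it Gata2 and Srgn. Of the 8 eosinophil markers, 7 had no count in CFU-E, so their sum there was that of Siglecf alone, which was not called. Of the tested markers, 3 of 5 mast cell and basophil, 3 of 5 endothelial and stromal, 2 of 4 dendritic cell and 1 of 2 T and NK markers were called lower in CFU-E, and 1 mast cell, 1 dendritic cell and 1 macrophage marker were called higher. The part of other cells in the falls was not tested.

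Many genes that build ribosomes and fold proteins in the cytosol rose by small amounts. All 42 tested ribosome biogenesis genes had a positive log2 fold change, with a median of 0.49; 24 were called higher (against 9.17% of all tested genes) and none lower, and 15 to 30 were called under the alternative settings. Nolc1, a nucleolar chaperone, had 675, 695 and 671 CPM in the CFU-E libraries, against 439.7, 404 and 409 CPM in the BFU-E libraries (log2 fold change of 0.70 ± 0.08 (SE), adjusted p = 2.26e-06). Wdr12 and Rrp9 had the largest changes of the list, at 0.99 and 0.91, and Ncl, nucleolin, the most abundant, averaged 6100.1 ± 58.8 CPM in CFU-E and 4366 ± 219 CPM in BFU-E (log2 fold change of 0.48 ± 0.05 (SE), adjusted p = 1.03e-07). Of 52 tested ribosomal protein genes, 7 rose (13.5%, against 9.17% of all tested genes) and none fell, and 2 to 5 rose with 1 library left out. Many of them have near-identical pseudogenes that make counts uncertain. Of 19 cytosolic chaperones 16 rose and none fell, or 10 without CFU-E replicate 1 and 6 in the test on RPKM. Hsp90aa1, the inducible cytosolic HSP90, had 894, 871 and 911 CPM in the CFU-E libraries, against 514, 565 and 491 CPM in the BFU-E libraries (log2 fold change of 0.77 ± 0.09 (SE), adjusted p = 1.46e-06). The subunits of the CCT ring, which folds actin and tubulin, rose by 0.25 (Cct5) to 0.42 (Cct2). Folding genes of the endoplasmic reticulum were called in the other direction: of 20 tested, 9 fell and none rose, with a median of -0.31, or 5 without CFU-E replicate 2 or 3, 4 without BFU-E replicate 1 and 5 in the test on RPKM. Sdf2l1, Xbp1, the factor that induces these genes, and Dnajc3 fell by 0.92, 0.84 and 0.68.

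Some genes for making nucleotides and copying DNA rose and some genes of mitosis fell, but most members of each list were not called. Of 38 nucleotide and one-carbon genes 14 rose (against 9.17% of all tested genes) and none fell, or 9 without CFU-E replicate 1 or BFU-E replicate 3 and 8 in the test on RPKM. Slc29a1, a nucleoside transporter, had 65.5, 82.5 and 59.8 CPM in the CFU-E libraries, against 16.6, 19.8 and 18.7 CPM in the BFU-E libraries (log2 fold change of 1.92 ± 0.23 (SE), adjusted p = 2.34e-06), and Mthfd1, a folate enzyme, 566, 527 and 462 CPM in the CFU-E libraries, against 241, 211 and 215 CPM in the BFU-E libraries (log2 fold change of 1.22 ± 0.11 (SE), adjusted p = 2.47e-08). Of 42 replication genes 11 rose (against 9.17% of all tested genes) and none fell, with a median of 0.16. The count was 5 to 7 without CFU-E replicate 1 or 2 or BFU-E replicate 1 or 2, and 4 in the test on RPKM. Orc5, a subunit of the origin recognition complex, and Cdc6, which loads the helicase, rose by 1.22 and 0.87. Of 45 mitosis genes 13 fell (against 11.9% of all tested genes) and 1 rose, with a median of -0.30; the falls numbered 8 without CFU-E replicate 3, 7 without BFU-E replicate 1 and 5 in the test on RPKM. Ckap2l, a spindle protein, averaged 118 ± 28.6 CPM in CFU-E and 297 ± 47.7 CPM in BFU-E (log2 fold change of -1.33 ± 0.15 (SE), adjusted p = 1.56e-06). Ccnb1, cyclin B1, fell by 1.06, and that call was lost when any library but BFU-E replicate 3 was left out. Ect2, which directs the cleavage furrow, was the rise, at 1.19. Of the G1 cyclins, Ccne1, cyclin E1, had 78.6, 55.0 and 53.3 CPM in the CFU-E libraries, against 13.4, 20.3 and 15.7 CPM in the BFU-E libraries (log2 fold change of 1.92 ± 0.25 (SE), adjusted p = 8.21e-06), while the D cyclins Ccnd1, Ccnd2 and Ccnd3 fell by 0.62, 0.43 and 0.71.

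Several pairs of related genes changed in opposite directions, and their RPKM values (the deposited levels per length and library size) allow the members to be compared. The pairs were chosen after their values were seen. Pklr stood at 26.2 ± 5.67 RPKM in CFU-E and 0.242 ± 0.210 RPKM in BFU-E, and Pkm, the pyruvate kinase of most dividing cells, at 19.6 ± 2.34 RPKM in CFU-E and 61.9 ± 9.01 RPKM in BFU-E. Pklr thus made up 51.3 to 61.6% of the pair's level in the CFU-E libraries and 0 to 0.666% in the BFU-E libraries. Hk1, the hexokinase of red cells, stood at 109 ± 8.68 RPKM in CFU-E and 76.0 ± 5.95 RPKM in BFU-E and Hk2 at 5.91 ± 0.826 RPKM in CFU-E and 8.58 ± 0.729 RPKM in BFU-E, so Hk1 was the main form in both. The glucose transporters Slc2a1 and Slc2a3 fell by 1.35 and 1.09 on the log2 CPM scale, and of 23 genes of glycolysis and the pentose phosphate pathway 7 rose and 6 fell, or 2 without BFU-E replicate 1 and 2 in the test on RPKM. Myc, the growth regulator, stood at 97.1 ± 5.08 RPKM in CFU-E and 53.5 ± 5.60 RPKM in BFU-E, and its relative Mycn at 6.20 ± 1.36 RPKM in CFU-E and 42.9 ± 4.09 RPKM in BFU-E. Myc made up 93.3 to 95.3% of that pair in CFU-E and 53.4 to 57.2% in BFU-E. Myh10, non-muscle myosin IIB, stood at 36.3 ± 2.96 RPKM in CFU-E and 5.51 ± 1.09 RPKM in BFU-E and Myh9, myosin IIA, at 112 ± 3.21 RPKM in CFU-E and 186 ± 8.75 RPKM in BFU-E. Myh9 remained the higher of the pair in every library, with Myh10 at 23.1 to 26.0% in CFU-E and 2.32 to 3.24% in BFU-E.

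**Figure D4:**
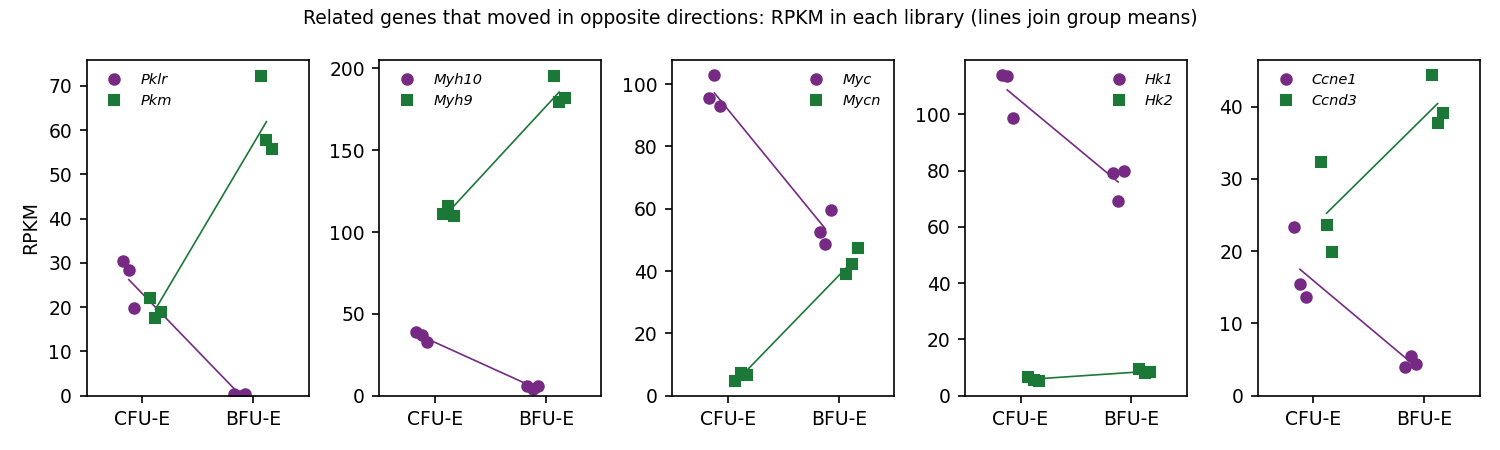
RPKM (y axis, from 0) in each CFU-E library, at left, and each BFU-E library, at right, for 5 pairs of genes, with one gene of a pair as purple circles, the other as green squares, and lines joining the group means. The first genes, Pklr, Myh10, Myc, Hk1 and Ccne1, are higher in CFU-E, and the second, Pkm, Myh9, Mycn, Hk2 and Ccnd3, are lower.

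Among mitochondrial genes, the larger lists were called at about the share of all genes. Of 21 genes of mitochondrial biogenesis, import and dynamics 9 rose and none fell, with a median of 0.49, or 5 without CFU-E replicate 2. Hspe1 and Hspd1, the HSP10 and HSP60 folding chamber, rose by 0.90 and 0.61. Of 72 oxidative phosphorylation genes 9 rose and none fell, and of 74 mitochondrial ribosomal protein genes 8 rose and none fell, shares near the 9.17% of all tested genes; these counts were 5 without CFU-E replicate 2 or BFU-E replicate 3 for oxidative phosphorylation, and for the ribosomal proteins 5 without CFU-E replicate 1, 4 without BFU-E replicate 2 or 3, and 15 in the fit of the 6 libraries alone. Among 26 genes of the TCA cycle and pyruvate oxidation, 6 rose, led by Cs, citrate synthase (0.57), and 4 fell, among them Idh1 (-0.82), while 0 to 2 fell with 1 library left out.

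Regulators of chromatin and of the cell's shape included a few large falls. Hdac5, a class IIa histone deacetylase, had 10.6, 11.8 and 13.6 CPM in the CFU-E libraries, against 112, 104 and 111 CPM in the BFU-E libraries (log2 fold change of -3.19 ± 0.19 (SE), adjusted p = 4.50e-11). The DNA methyltransferases Dnmt3a and Dnmt3b and the demethylating enzyme Tet1 fell by 1.01, 0.81 and 1.07, within a list of 33 in which 5 rose and 6 fell (against 9.17% and 11.9% of all tested genes), with a median of 0.07. The rises of that list were led by Hdac7, another class IIa deacetylase, and Mbd2, which binds methylated DNA, at 0.91 and 0.87. Tmsb4x, thymosin beta 4, which binds free actin, averaged 74.0 ± 11.1 CPM in CFU-E and 614 ± 47.6 CPM in BFU-E (log2 fold change of -3.05 ± 0.14 (SE), adjusted p = 9.88e-13), and Zyx, zyxin, fell by 2.03. Of 24 actin cytoskeleton genes 5 rose and 10 fell (against 9.17% and 11.9% of all tested genes), or 6 without BFU-E replicate 1. Genes of red cell maturation, at the step of enucleation, had not moved up: Trim58, Xpo7 and Cpeb4 fell by 0.96, 0.97 and 1.42, and Slc38a5, an amino acid transporter, was the only rise of 14. Slc38a5 had 37.9, 53.6 and 48.6 CPM in the CFU-E libraries, against 0.150, 1.66 and 6.22 CPM in the BFU-E libraries (log2 fold change of 4.12 ± 0.69 (SE), adjusted p = 0.000133), and without BFU-E replicate 3 its log2 fold change was 5.73.

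**Figure D5:**
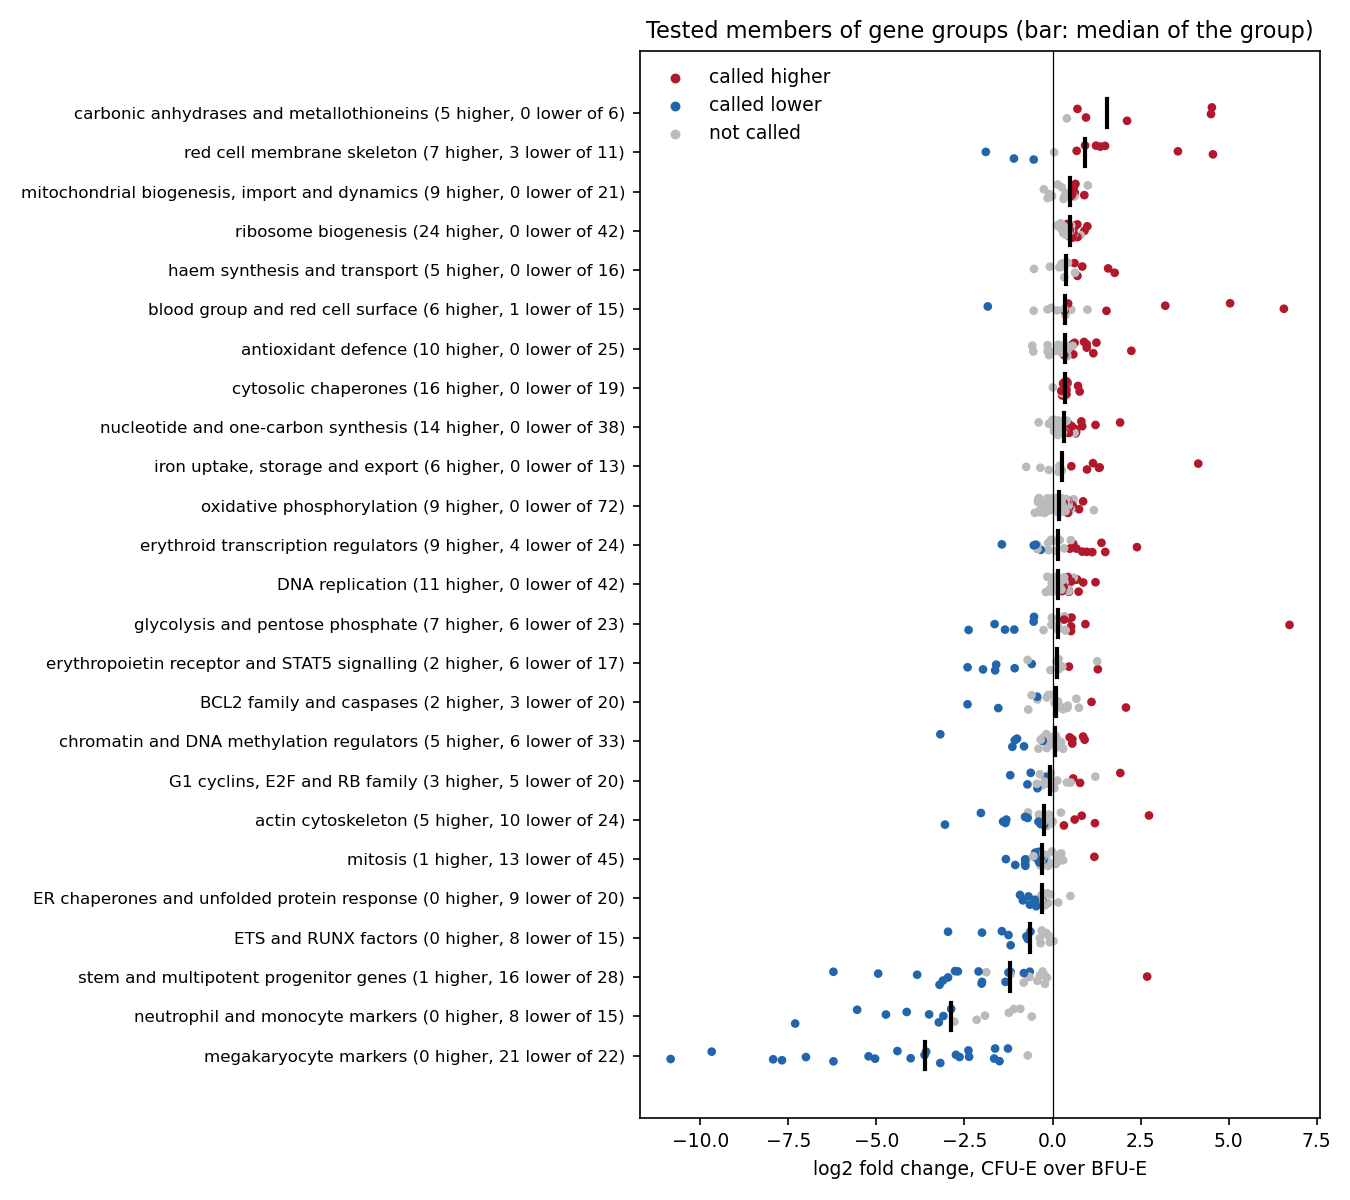
Log2 fold changes of CFU-E over BFU-E (x axis) of the tested members of the gene lists (rows), with members called higher in red, called lower in blue and not called in grey, and a bar at the median. Megakaryocyte markers have a median of -3.61 and ribosome biogenesis genes one of 0.49, against -0.0022 for all tested genes.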

How the data were processed

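RNA-seq counts of 9 spleen libraries and 1 ATAC-seq peak list were used. The authors deposited raw counts per gene and RPKM values, made with HOMER over exons of 1 transcript per gene, per the file headers, and the strand setting is not given in the sources used here. The submitters' processing notes name STAR 2.6.0b-1, HOMER 4.8, Bowtie2 2.3.4.2 and DESeq2, with build mm10 (GRCm38). The deposited peak score was used only to pick stronger peaks, and the peak caller is not given in the sources used here. Genes with a mean of at least 50 counts were tested with edgeR 4.0.16 (R 4.3.3; TMM, quasi-likelihood F test, group only, Benjamini-Hochberg 0.05). All 3 spleen populations entered the fit. The alternatives were DESeq2 1.42.0, other scalings and filters, limma 3.58.1 on log2(RPKM + 1), a replicate block and leaving out each library. Counts were also simulated for this comparison over 10166 genes, of which 200 were changed, as many up as down. Of 100 genes changed 2-fold 58% were recovered and of 100 changed 4-fold 93%, with 6 false calls. The changed genes were a smaller share than the 21.1% called in the data and left out genes of the lowest level. These rates may thus differ from those of the data. Promoters were RefSeq windows of 250 bases before to 50 after the start (GRCm38.p6), and 7387 of the tested genes had one within 100 bases of the start in the files. Genes were named by rule: the 15 largest changes each way among called genes with a mean of at least 20 CPM and groups that do not overlap, up to 3 called members per list and direction, the sort antigens, and tested members of the core red cell lists. Other genes named were chosen after their values were seen, and a few genes are not reported here. The comparison and the gene lists were chosen with earlier results of these data known. Wilson intervals cover counting error only.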

Additional observations from a re-analysis of the deposited data

How the results depend on the processing

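Calls numbered 2145, with 1561 in limma on log2(RPKM + 1) and up to 2531 in the fit of 6 libraries with a replicate block, which was added after seeing the data. Genes called higher fell to 621 in limma, against 932. Leaving out 1 library gave 1649 to 1968 calls (671 to 843 higher, 978 to 1125 lower) and 895 to 988 of at least 2-fold. No called value of the 247 genes named by rule changed direction in an alternative that gave a value, and the median log2 fold change of all tested genes lay between -0.0206 and 0.0055. Column names number the spleens alike in each population, and the labels do not say whether a number marks a shared animal. The deviations of same-numbered libraries correlated at 0.116, 0.0199 and 0.0623, and those of other pairs at -0.0898 to 0.0296. BFU-E replicate 2 correlated best with CFU-E replicate 3. These values cannot show whether the libraries were paired. The replicate block gave 2221 calls (976 higher, 1245 lower, 974 of at least 2-fold), of which 2096 were shared. Within 100 bases, peaks lay at 92.4% of genes called higher, 89.0% (88.95) of those lower, 81.4% of those at least 4-fold lower and 93.2% of all tested. Peaks scored above the median lay at 88.1% and 79.6% of genes called higher and lower, at 63.2% and 68.3% of those at least 4-fold higher and lower, and at 89.0% (89.02) of all tested. Depth set which genes were tested, as those with a mean under 50 counts were left out.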

Other observations

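Tetraspanins and adhesion receptors changed beyond the sort antigen Cd9. Cd82, a tetraspanin, averaged 38.0 ± 14.4 CPM in CFU-E and 4.88 ± 0.975 CPM in BFU-E (log2 fold change of 2.95 ± 0.38 (SE), adjusted p = 5.67e-06), the largest rise of 16 tested tetraspanins, of which 2 rose and 5 fell. Of 19 adhesion and homing receptors 2 rose and 9 fell, and of all tested genes 9.17% were called higher and 11.9% lower. Itga4, the VLA-4 chain by which erythroid cells bind macrophages, rose by 0.71, while F11r, Emb and Esam, cell contact proteins, fell, with log2 fold changes of -3.29, -3.15 and -3.11.

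Of 33 tested interferon genes 7 rose and 3 fell, against 9.17% and 11.9% of all tested genes; the rises numbered 4 without CFU-E replicate 1 or 2, 3 without BFU-E replicate 2 or 3 and 2 in the test on RPKM. Oasl1 averaged 15.1 ± 5.16 CPM in CFU-E and 2.20 ± 0.815 CPM in BFU-E (log2 fold change of 2.77 ± 0.58 (SE), adjusted p = 0.00134). Ifitm3, which blocks viral entry, fell by 1.09. Of 12 hypoxia genes 1 rose and 5 fell (against 9.17% and 11.9% of all tested genes). The falls numbered 3 without CFU-E replicate 1 or BFU-E replicate 1, 2 without CFU-E replicate 3 and 2 in the test on RPKM. Egln3, an oxygen sensor, averaged 1.52 ± 0.281 CPM in CFU-E and 7.42 ± 1.597 CPM in BFU-E (log2 fold change of -2.28 ± 0.52 (SE), adjusted p = 0.00296), and its relative Egln1 rose by 0.72. Klf2, an immediate early gene, fell by 2.29, a call that was lost without BFU-E replicate 2, where the log2 fold change was -1.02.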
